A study of Mus musculus with 9 samples.

Results

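The genes of fatty acid oxidation and ketone body formation were followed in mouse liver as a list of 42 genes, found by their name in a table of FPKM values (sequenced fragments scaled to transcript length and to library size). Of the 42 genes, 38 had an entry under their own name, among 26350 entries that had a gene name and at least 1 known transcript, of 52151 in all. The list was divided by role into control, uptake and activation, the carnitine shuttle, the mitochondrial spiral, electron transfer, the peroxisomal steps, thioesterases, ketone bodies and other targets of the receptor PPARα. Pair-fed mice (PF) received an isocaloric control liquid diet, alcohol-fed mice (AF) received the alcohol-containing Lieber-DeCarli diet, and the last group (AF+MNA) received that diet together with intraperitoneal MNA at 50 mg/kg, a substance whose name the labels do not spell out. Feeding lasted 5 weeks in the 3 groups, each with 3 libraries, and the labels give 8 weeks as the age and liver as the tissue of all 9 libraries. The strain label read C57BL/6 for PF and AF but C57BL/7, C57BL/8 and C57BL/9 for AF+MNA replicates 1, 2 and 3, so that group and strain label cannot be told apart. The methods describe PF and AF as male C57BL/6J mice, and no genetic change was given for any group. No source used here states how a replicate number relates to an animal, so the p-values measure the spread between these libraries.

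Hepatocytes take up fatty acids, join them to coenzyme A and either store or burn them. Carnitine carries long chains into mitochondria, where the β-oxidation spiral shortens them to acetyl-CoA, the starting material of ketone bodies, while peroxisomes shorten very long chains and dicarboxylic acids. PPARα, a nuclear receptor that fatty acids activate and that pairs with RXR on DNA, is the best known inducer of these genes in the fasted liver, and acyl-CoA thioesterases, which split acyl-CoA back to the free acid, are among its most responsive targets.

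The 8 hepatocyte marker genes summed to between 17518 and 24538 FPKM, lowest in AF replicate 2. Alb, the largest part of that sum, and Ttr were lowest there (10882 and 985 FPKM). Tat and Hnf4a were instead highest there (581 and 69.4 FPKM), and the rest lay between. The 3 adipocyte marker genes with an entry summed to at most 0.19 FPKM. Read coverage per FPKM, which rises with sequencing depth, lay between 5.84 (AF+MNA replicate 3) and 8.30 (AF+MNA replicate 1). AF replicate 2 stood apart: it was the lowest AF library for 51.4% of all genes. Its rank correlation with AF replicate 3 was the lowest within any group (0.877). Its macrophage marker sum of 95.7 FPKM exceeded the 51.5 to 87.1 FPKM of the others, but Cd5l made up most of that sum (54.1 FPKM). Cd5l, Adgre1 and Timd4 were highest in AF replicate 2, whereas Clec4f, Vsig4, Marco and Csf1r were not. The summed FPKM of unannotated transcripts inside introns was 9433 in AF replicate 3 and 8934 in AF+MNA replicate 1, against 2477 to 4937 elsewhere. Calls at an unadjusted p under 0.05 that changed without AF replicate 2 are given by gene.

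Across the list, levels were most often highest in AF+MNA. For 18 of the 38 genes (47.4%) the group means ran AF, PF, AF+MNA from low to high, an order found in 13.4% of the 12257 genes averaging at least 0.5 FPKM over the 9 libraries, with ties of group means not counted (13.5% with ties broken in the order PF, AF, AF+MNA). Without 1 library at a time this held for 14 to 21 listed genes and for 12.2% to 16.7% of all. Between AF and PF the median log2 ratio of group means was -0.13 (all genes -0.03), with 25 of 38 genes below 0. It was -0.25 without AF replicate 2 (all genes 0.02), with 28 below 0, but -0.03 without AF replicate 1 (all genes -0.05), with 21 below 0. Without AF replicate 1 the median of the list was thus close to that of all genes. The same median was 0.39 between AF+MNA and AF (all genes 0.01), with 35 of 38 genes above 0. It was 0.25 between AF+MNA and PF (all genes -0.02), with 30 of 38 above 0, and 0.16 without AF+MNA replicate 3 (all genes -0.02), with 26 above 0. These comparisons share libraries and are given side by side. In bulk liver, fewer cells of a type and less RNA per cell cannot be told apart.

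**Figure D1:**
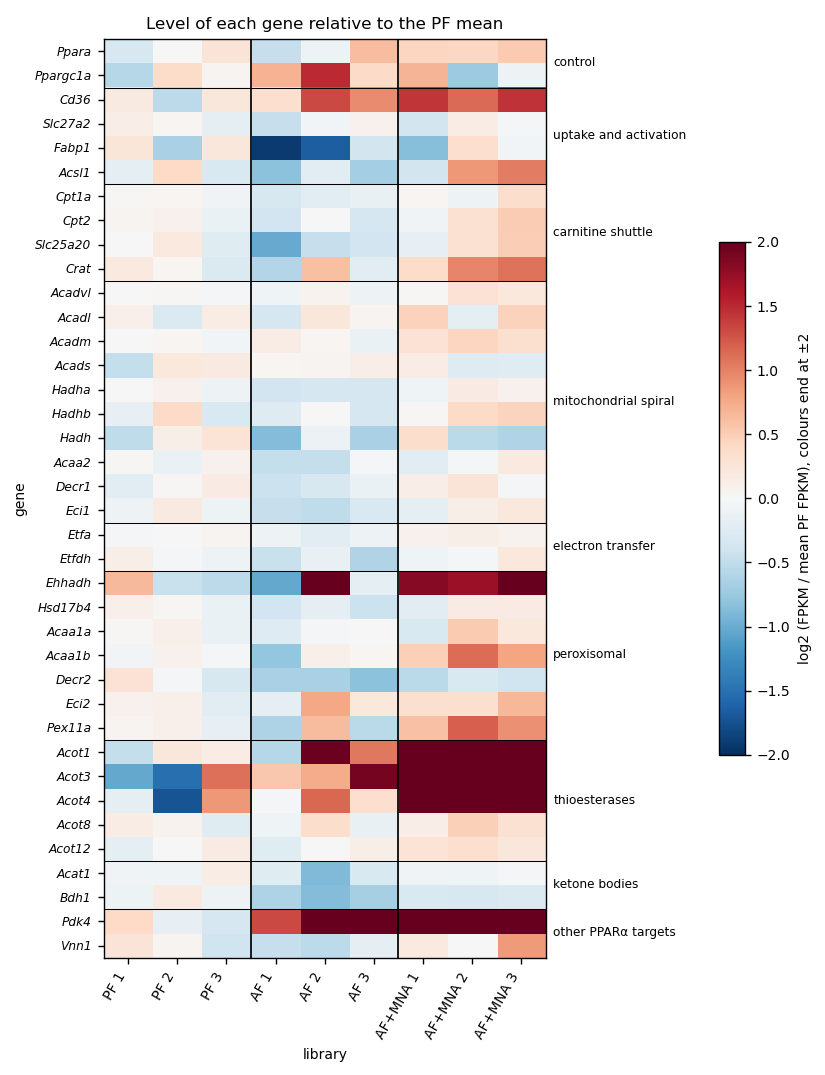
Colour gives log2 of a gene's FPKM over its PF mean, for the 38 genes (vertical, grouped by role) in the 9 libraries (horizontal); red is above and blue below the PF mean, and colours end at ±2. In the mitochondrial spiral AF replicates 1 and 3 are blue for 8 of the 10 genes and AF replicate 2 for 5, and the AF+MNA libraries are red for Acot1, Acot3, Acot4, Ehhadh, Cd36 and Pdk4.

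Each gene was tested with limma on log2(FPKM + 1), and p-values were adjusted by Benjamini-Hochberg over all genes tested. Between AF and PF, 2 genes were higher and 7 lower at an unadjusted p under 0.05, where 5.1% and 6.57% of all genes were. At the threshold of the methods, which adds a log2 ratio past 1 or -1, 1 gene was called (4.29% of all genes). The paper gave that threshold for lncRNAs (long non-coding RNAs) analyzed with Ballgown, whereas here it was applied to limma p-values of genes. At an adjusted p under 0.05 limma called 0 (0.326%). Groups did not overlap for 3 higher (8.18%) and 10 lower genes (10.1%).

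Against AF, 17 genes of AF+MNA were higher and 0 lower at an unadjusted p under 0.05, where 2.91% and 2.3% of all genes were. The threshold of the methods was passed by 4 genes, all higher (1.98% of all genes in either direction). At an adjusted p under 0.05 limma called 0 (0.0491%), and the smallest adjusted p of a listed gene was 0.388, for Acot4. The 2 groups did not overlap for 18 genes, all higher in AF+MNA (5.53% of all genes higher, 4.57% lower).

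Against PF, 12 genes of AF+MNA were higher and 1 lower at an unadjusted p under 0.05, where 6.52% and 7.94% of all genes were. The threshold of the methods was passed by 6 genes, all higher (3.88% in either direction), and 1 gene, Acot1, had an adjusted p under 0.05 (0.423%). Groups did not overlap for 14 higher (9.54%) and 1 lower gene (11.9%).

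**Figure D2:**
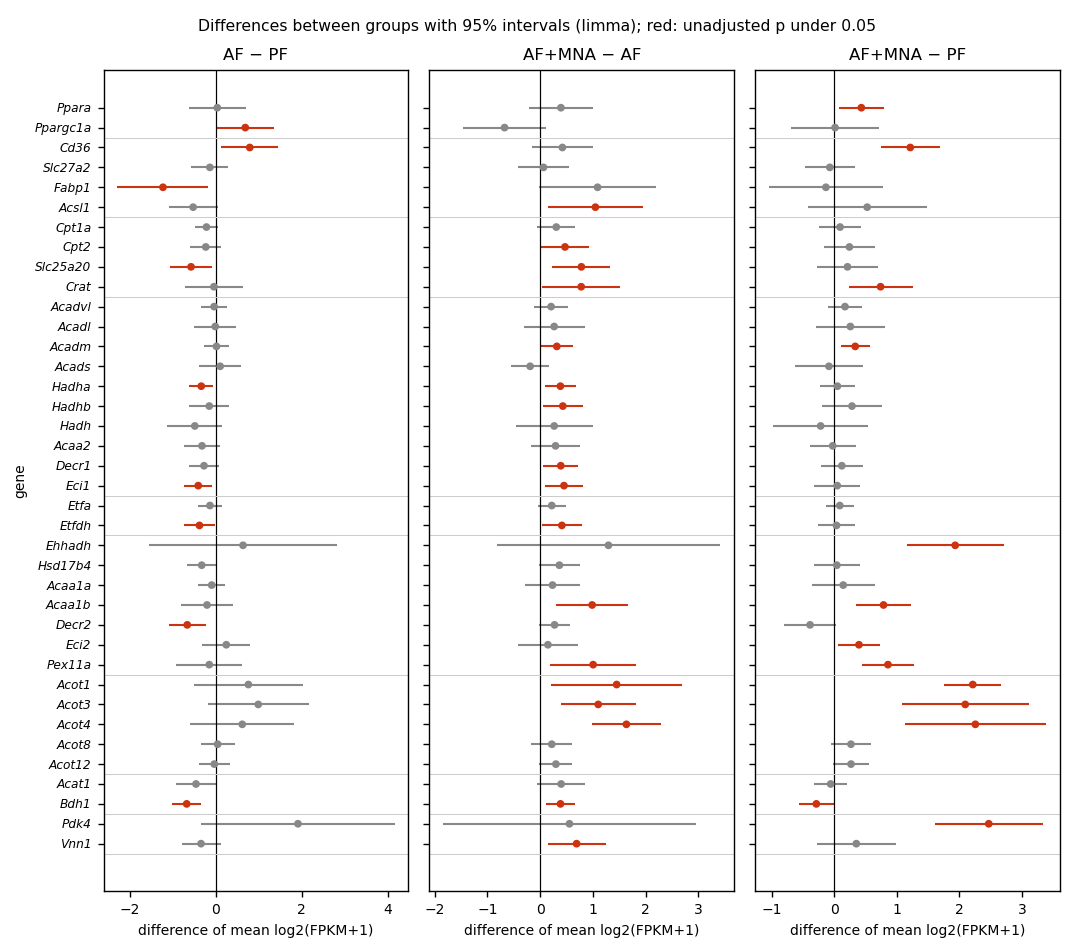
Points give the difference of mean log2(FPKM + 1) with its 95% interval from limma (horizontal) for the 38 genes (vertical) in the 3 comparisons; red marks an unadjusted p under 0.05. In the middle panel 36 of 38 points lie right of 0 and 17 are red, whereas the widest intervals, those of Ehhadh and Pdk4, are those of the comparisons with AF.

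Ppara, which encodes PPARα, measured 7.67, 9.59 and 11.4 FPKM in PF, 6.90, 8.93 and 14.7 FPKM in AF and 12.9, 12.7 and 13.7 FPKM in AF+MNA. Every AF+MNA library lay above every PF library, while AF spanned both groups. The log2 ratio of AF+MNA to PF was 0.46 (difference on the log2(FPKM + 1) scale 0.43 ± 0.15 SE, unadjusted p = 0.0248, adjusted p = 0.284). The unadjusted p stayed under 0.05 in 1 of 6 fits that left out a library, the one without PF replicate 3, was above 0.05 and at most 0.0702 in the others, and was 0.109 with all 9 libraries in the fit. Ppargc1a, a coactivator that drives mitochondrial genes, measured 1.63, 3.13 and 2.54 FPKM in PF, 3.93, 6.84 and 3.16 FPKM in AF and 3.90, 1.47 and 2.26 FPKM in AF+MNA. Every AF library lay above every PF library, though the lowest of AF exceeded the highest of PF by little, and AF+MNA overlapped both. The log2 ratio of AF to PF was 0.93 (0.69 ± 0.28 SE, unadjusted p = 0.0458, adjusted p = 0.414). It was 0.54 without AF replicate 2 (unadjusted p = 0.113), and the unadjusted p was also above 0.05 without AF replicate 1 (0.0682), PF replicate 1 (0.14) or PF replicate 3 (0.0786).

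Cd36, a fatty acid translocase of the cell surface (chr5:17781690-17888801, minus strand, GRCm38), measured 5.98, 3.69 and 6.17 FPKM in PF, 6.67, 13.3 and 10.1 FPKM in AF and 14.2, 11.6 and 14.4 FPKM in AF+MNA. Both alcohol groups lay above PF in every library and overlapped each other. Its log2 ratio was 0.92 between AF and PF (0.79 ± 0.28 SE, unadjusted p = 0.0255, adjusted p = 0.360) and 1.34 between AF+MNA and PF (1.21 ± 0.19 SE, unadjusted p = 0.000687, adjusted p = 0.0907). The first ratio was 0.67 without AF replicate 2 (unadjusted p = 0.0759), and the unadjusted p was 0.0675 without AF replicate 3, 0.0795 without PF replicate 2 and 0.0542 with the replicate block. The second kept an unadjusted p under 0.05 without each of the 6 libraries. Cd36 is also made by endothelial cells and macrophages. The 8 endothelial marker genes summed to 32.0 to 43.8 FPKM in PF, 40.2 to 55.9 FPKM in AF and 50.0 to 59.2 FPKM in AF+MNA. Of the 8, 5 were higher in AF+MNA than in PF at an unadjusted p under 0.05 (6.52% of all genes). The 7 macrophage genes summed to 65.4 to 79.6, 51.5 to 95.7 and 66.7 to 87.1 FPKM in the same order, with 1 of the 7 higher, and the part of these cells in the Cd36 difference was not tested.

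Fabp1, the liver fatty acid binding protein (chr6:71199827-71205023, plus strand), measured 91.4, 49.4 and 90.5 FPKM in PF, 20.6, 24.6 and 59.7 FPKM in AF and 42.7, 97.4 and 74.0 FPKM in AF+MNA. AF replicates 1 and 2 lay below every other library, while AF replicate 3 lay above PF replicate 2. It was the 1 listed gene past the threshold of the methods between AF and PF, with a log2 ratio of -1.14 (-1.22 ± 0.44 SE, unadjusted p = 0.0293, adjusted p = 0.373). The log2 ratio was -0.94 without AF replicate 2 (unadjusted p = 0.0917) and -0.87 without AF replicate 1 (unadjusted p = 0.0941), which ended the call. It was -1.77 without AF replicate 3 (unadjusted p = 0.00244), and the unadjusted p was 0.0851 and 0.082 without PF replicate 1 or 3. Against AF, the log2 ratio of AF+MNA was 1.03, with an unadjusted p of 0.0545, and without AF replicate 3 it was 1.66 (unadjusted p = 0.00691), past the threshold. The RefSeq promoter table (GRCm38.p6) held 39 windows, from 250 bases before to 50 after a start, for 36 of the 42 genes. They were searched on both strands for the direct repeat that PPARα binds with RXR, 2 copies of AGGTCA with 1 base between them, and for its relaxed form of 2 copies of AGGNCA, in which N is any base. Fabp1 was the 1 of 36 genes with the relaxed form, which 0.451% of all 27025 genes in the table had. Its window is shown from 127 bases before the RefSeq start to that start (chr6:71199752-71199878, plus strand). The gene span given above begins before the RefSeq start, so the end of the window lies inside that span, whereas the repeat lies before it. The repeat, read on the other strand and beginning 67 bases before the RefSeq start, is in capitals.
Fabp1: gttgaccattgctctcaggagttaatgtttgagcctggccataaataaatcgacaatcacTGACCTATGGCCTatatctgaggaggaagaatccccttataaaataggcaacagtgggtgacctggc

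The exact repeat was in 0 of 36 genes (0.0481% of all). Its single unit AGGTCA, which overlaps the repeats, was in 9 of 36 genes (25%), namely Acadm, Acadvl, Acot12, Acot3, Acot4, Cd36, Cpt1a, Fabp1 and Slc27a2, against 18.1% of all genes. A match of letters is a description and does not show binding.

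Acsl1, the main long-chain acyl-CoA synthetase of liver (chr8:46471037-46536051, plus strand), measured 25.9, 39.0 and 24.1 FPKM in PF, 16.8, 25.3 and 18.4 FPKM in AF and 23.0, 53.8 and 60.2 FPKM in AF+MNA. AF+MNA replicates 2 and 3 were the highest libraries of all, whereas replicate 1 lay below AF replicate 2. The log2 ratio of AF+MNA to AF was 1.18 (1.05 ± 0.38 SE, unadjusted p = 0.0292, adjusted p = 0.940). That call was lost without AF replicate 1 or 3 or AF+MNA replicate 2 or 3 (unadjusted p from 0.0786 to 0.0888), and the ratio was lowest, 0.93, without AF+MNA replicate 3. The antisense lncRNA Gm45244, which lies at the start of Acsl1 (chr8:46471391-46473590), measured 32.7, 29.3 and 29.7 FPKM in PF, 5.34, 37.3 and 22.2 FPKM in AF and 31.6, 74.8 and 87.4 FPKM in AF+MNA. It too was lowest in AF replicate 1 and highest in AF+MNA replicates 2 and 3. The libraries were strand-specific, but how strand was set in the authors' assembly is not given in the sources used here, so reads of the 2 strands may not be fully apart. Slc27a2, a fatty acid transporter and very long chain acyl-CoA synthetase, had group means of 29.0, 26.5 and 27.7 FPKM in PF, AF and AF+MNA, and its unadjusted p was at least 0.482 in the 3 comparisons.

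Cpt1a, the carnitine palmitoyltransferase that gates entry into mitochondria, measured 25.1, 25.4 and 23.4 FPKM in PF, 19.8, 21.4 and 22.1 FPKM in AF and 25.2, 23.0 and 31.3 FPKM in AF+MNA. AF lay below both other groups without overlap, but the differences were small. The log2 ratio was -0.22 between AF and PF (unadjusted p = 0.110) and 0.33 between AF+MNA and AF (unadjusted p = 0.0826). Cpt2, which rebuilds acyl-CoA inside the mitochondrion, measured 36.9, 37.7 and 32.4 FPKM in PF, 27.3, 35.5 and 28.4 FPKM in AF and 33.9, 43.9 and 50.7 FPKM in AF+MNA. AF replicate 2 reached into both other groups. Its log2 ratio of AF+MNA to AF was 0.49 (0.47 ± 0.19 SE, unadjusted p = 0.0457, adjusted p = 0.940), with a p under 0.05 in 2 of 6 fits that left out a library.

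Slc25a20, the carnitine-acylcarnitine translocase of the inner membrane, measured 20.7, 23.7 and 17.5 FPKM in PF, 10.2, 15.1 and 15.8 FPKM in AF and 18.4, 25.4 and 28.9 FPKM in AF+MNA. AF lay below both other groups in every library. The log2 ratio was -0.59 between AF and PF (-0.57 ± 0.20 SE, unadjusted p = 0.0271, adjusted p = 0.365) and 0.83 between AF+MNA and AF (0.78 ± 0.23 SE, unadjusted p = 0.0127, adjusted p = 0.940). Crat, which makes short acylcarnitines, had a log2 ratio of 0.83 between AF+MNA and AF (unadjusted p = 0.0412) and of 0.84 between AF+MNA and PF (unadjusted p = 0.0120, adjusted p = 0.235). For the 4 shuttle genes the median log2 ratio was -0.23 between AF and PF and 0.66 between AF+MNA and AF.

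The 10 genes of the mitochondrial spiral had log2 ratios between -0.51 and 0.48 in the 3 comparisons. Acaa2, the thiolase of the last step and the most abundant gene of the list, measured 217, 195 and 227 FPKM in PF, 154, 153 and 211 FPKM in AF and 182, 207 and 243 FPKM in AF+MNA. AF replicates 1 and 2 were the lowest libraries, but AF replicate 3 lay inside the other groups, and the unadjusted p was at least 0.122 in the 3 comparisons. Across the 10 genes the log2 ratio of AF to PF ran from -0.51 (Hadh, hydroxyacyl-CoA dehydrogenase) to 0.08 (Acads, the short-chain dehydrogenase), with a median of -0.24. Hadha, the α subunit of the trifunctional protein, measured 27.9, 29.6 and 26.0 FPKM in PF, 21.4, 22.1 and 22.0 FPKM in AF and 26.1, 31.1 and 29.4 FPKM in AF+MNA. Its AF libraries lay close together and below all others. Its log2 ratio was -0.35 between AF and PF (unadjusted p = 0.0246, adjusted p = 0.359) and 0.40 between AF+MNA and AF (unadjusted p = 0.0167, adjusted p = 0.940).

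Eci1, the isomerase for unsaturated chains, had a log2 ratio of -0.42 between AF and PF (unadjusted p = 0.0237). Of the 8 spiral genes with a ratio below 0 in that comparison, Hadha and Eci1 were those at an unadjusted p under 0.05. With the replicate block their p was 0.0523 and 0.0515. Comparing AF+MNA with AF, 5 of the 10 spiral genes were higher at an unadjusted p under 0.05 (2.91% of all genes). These were Eci1 (log2 ratio 0.47), Hadhb, the partner subunit of Hadha (0.48), Decr1, the dienoyl-CoA reductase (0.41), Hadha (0.40) and Acadm, the medium-chain dehydrogenase (0.32). Hadhb shares 52.8% of its 100-base stretches with pseudogenes in GENCODE M21, so its reads may have been split. Acads alone of the 10 had a ratio below 0 (-0.18, unadjusted p = 0.257), and the median was 0.32. Without AF replicate 2 the unadjusted p was 0.0502 for Eci1, 0.0547 for Decr1 and 0.0617 for Acadm. Against PF, 7 of the 10 ratios of AF+MNA lay above 0, of which Acadm was the 1 at an unadjusted p under 0.05 (log2 ratio 0.35, unadjusted p = 0.0122, adjusted p = 0.235), and the median was 0.09. The dehydrogenases for long chains, Acadvl and Acadl, had unadjusted p of at least 0.173 and 0.296 in the 3 comparisons.

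Etfa and Etfdh pass electrons from the acyl-CoA dehydrogenases to ubiquinone. Etfa measured 42.6, 43.3 and 45.3 FPKM in PF, 40.9, 37.9 and 40.6 FPKM in AF and 46.2, 47.5 and 45.9 FPKM in AF+MNA. The groups did not overlap, with AF lowest and AF+MNA highest, but the log2 ratios were -0.14 (AF to PF, unadjusted p = 0.290) and 0.22 (AF+MNA to AF, unadjusted p = 0.0941). Etfdh had log2 ratios of -0.39 between AF and PF (unadjusted p = 0.0448) and 0.43 between AF+MNA and AF (unadjusted p = 0.0380), again without overlap. With the replicate block the p was 0.0579 and 0.0739, with libraries scaled to the same median 0.12 and 0.0889, and it stayed under 0.05 in 1 and 2 of the 6 fits that left out a library.

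Ehhadh, the bifunctional enzyme of peroxisomal β-oxidation (chr16:21761287-21787807, minus strand), measured 20.4, 9.59 and 9.09 FPKM in PF, 6.41, 91.0 and 11.6 FPKM in AF and 46.1, 42.4 and 61.0 FPKM in AF+MNA. AF replicate 2 was the highest of all libraries and AF replicate 1 the lowest, whereas the AF+MNA libraries were all above PF. The log2 ratio of AF+MNA to PF was 1.94 (1.93 ± 0.32 SE, unadjusted p = 0.000829, adjusted p = 0.0979). That of AF to PF was 1.48, and -0.54 without AF replicate 2 (unadjusted p = 0.510 and 0.324). That of AF+MNA to AF was 0.46, and 2.47 without AF replicate 2 (unadjusted p = 0.189 and 0.000302).

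Acaa1b, a peroxisomal thiolase and the most abundant peroxisomal gene of the list, measured 73.7, 81.6 and 74.4 FPKM in PF, 45.0, 82.5 and 78.9 FPKM in AF and 107, 165 and 133 FPKM in AF+MNA. AF+MNA lay above both other groups in every library. The log2 ratio was 0.97 against AF (0.99 ± 0.28 SE, unadjusted p = 0.0117, adjusted p = 0.940) and 0.82 against PF (0.79 ± 0.18 SE, unadjusted p = 0.00429, adjusted p = 0.158). Its near copy Acaa1a measured 15.0 to 26.4 FPKM with log2 ratios of 0.28 and 0.18 in those comparisons (unadjusted p = 0.314 and 0.516). The transcripts share 22.6% of the 100-base stretches of Acaa1b, so the split of reads between both is uncertain.

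Pex11a, which helps peroxisomes to divide, measured 14.4, 14.7 and 12.3 FPKM in PF, 8.98, 21.4 and 9.54 FPKM in AF and 20.7, 31.7 and 26.0 FPKM in AF+MNA. AF replicate 2 lay above AF+MNA replicate 1, and the other AF libraries lay below PF. The log2 ratio of AF+MNA was 0.97 against AF (unadjusted p = 0.0236) and 0.92 against PF (0.86 ± 0.17 SE, unadjusted p = 0.00239, adjusted p = 0.138). Decr2, the peroxisomal dienoyl-CoA reductase, was instead highest in PF and measured 46.3, 36.5 and 30.3 FPKM in PF, 24.1, 23.9 and 21.4 FPKM in AF and 25.8, 30.4 and 28.5 FPKM in AF+MNA. It was lower in AF than in PF without overlap (log2 ratio -0.70, unadjusted p = 0.00845, adjusted p = 0.258), and AF+MNA lay between, with 1 library above the lowest of PF.

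Hsd17b4, the multifunctional enzyme for branched chains, had log2 ratios of -0.33 between AF and PF and 0.38 between AF+MNA and AF (unadjusted p = 0.0542 and 0.0605). Eci2, a peroxisomal isomerase, was higher in AF+MNA than in PF (log2 ratio 0.44, unadjusted p = 0.0280), but the p was 0.0775 with the replicate block and 0.103 with all 9 libraries in the fit, and its entry also holds transcripts of Eci3. Over the 7 peroxisomal genes the median log2 ratio was 0.38 between AF+MNA and AF and 0.44 between AF+MNA and PF. Between AF and PF it was -0.10, but -0.40 without AF replicate 2 and 0.08 without AF replicate 1, so its sign rests on single libraries.

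**Figure D3:**
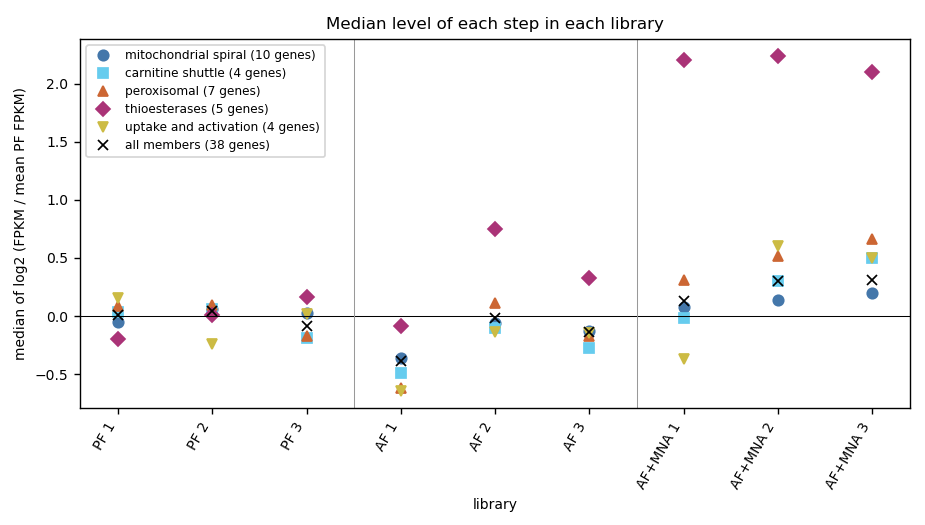
Each symbol is the median, over the genes of a step, of log2 FPKM relative to the PF mean (vertical) in 1 library (horizontal); crosses are the 38 genes together. The thioesterase median lies between 2.10 and 2.24 in the AF+MNA libraries and between -0.08 and 0.75 in AF, while the mitochondrial median does not exceed 0.20 in any library.

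The thioesterases held the largest median difference among the steps of more than 2 genes. Acot1, Acot3 and Acot4 lie next to each other on chromosome 12 and encode the cytosolic enzyme and peroxisomal enzymes of the same family. Acot1 (chr12:84009490-84018371, plus strand) measured 3.12, 5.07 and 4.82 FPKM in PF, 2.93, 17.0 and 9.02 FPKM in AF and 20.0, 24.0 and 26.6 FPKM in AF+MNA. Every AF+MNA library exceeded every other library, and AF ran from below PF (replicate 1) to well above it (replicate 2). Acot1 rose between PF and AF+MNA by a log2 ratio of 2.44, or 5.43-fold (2.21 ± 0.19 SE, adjusted p = 0.0171), and was the 1 listed gene past an adjusted p of 0.05. With all 9 libraries in the fit the adjusted p was 0.118, with the replicate block 0.0741, and without AF+MNA replicate 2 or 3 0.0509 and 0.0598. Its log2 ratio of AF+MNA to AF was 1.29 (1.45 ± 0.52 SE, unadjusted p = 0.0289, adjusted p = 0.940). Without AF replicate 3 or AF+MNA replicate 2 or 3 the unadjusted p was 0.0568, 0.0652 and 0.0732, and over the 6 libraries left out the ratio ran from 0.86, short of the threshold, to 1.98. The entry also holds the transcripts of Acot2, the mitochondrial enzyme, so the value is that of Acot1 and Acot2 together.

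Acot3 (chr12:84052144-84060402, plus strand) measured 0.94, 0.67 and 4.10 FPKM in PF, 2.77, 3.19 and 7.19 FPKM in AF and 9.26, 10.8 and 9.54 FPKM in AF+MNA. Acot4 (chr12:84038379-84048601, plus strand) measured 3.58, 1.23 and 7.45 FPKM in PF, 4.03, 9.08 and 5.14 FPKM in AF and 23.9, 19.3 and 17.5 FPKM in AF+MNA. For both, AF+MNA lay above all 6 other libraries, which overlapped each other, and replicate 3 was the highest of PF. Against AF, the log2 ratio of AF+MNA was 1.17 for Acot3 (1.10 ± 0.30 SE, unadjusted p = 0.00869, adjusted p = 0.940) and 1.73 for Acot4 (1.64 ± 0.27 SE, unadjusted p = 0.000743, adjusted p = 0.388). Relative to PF it was 2.38 for Acot3 (adjusted p = 0.135) and 2.31 for Acot4 (adjusted p = 0.145). Leaving out 1 library at a time, the ratio to PF ran from 1.97 to 3.62 for Acot3 and from 1.88 to 3.07 for Acot4. Both were highest without PF replicate 3 (adjusted p = 0.00883 and 0.0895) and lowest without PF replicate 2. Of the 100-base stretches of Acot3, 14.3% also occur in another gene, Acot1 among them, and of those of Acot4 0.36%.

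Acot4 is shown from 73 bases before its start to the start (RefSeq, GRCm38.p6, chr12:84038306-84038378, plus strand), as the thioesterase of this cluster with the single unit AGGTCA before its start. The unit, read on the other strand, is in capitals and begins 13 bases before the start.
Acot4: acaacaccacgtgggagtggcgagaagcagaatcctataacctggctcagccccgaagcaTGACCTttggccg

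The antisense lncRNA 4732463B04Rik, which overlaps Acot3 and Acot4 (chr12:84039469-84053807), measured 2.16, 2.44 and 5.36 FPKM in PF, 2.34, 5.02 and 6.75 FPKM in AF and 8.51, 6.75 and 10.1 FPKM in AF+MNA. Its highest PF library was replicate 3, as for both genes. Acot12, a cytosolic enzyme that splits acetyl-CoA, measured 11.3, 13.0 and 14.5 FPKM in PF, 11.0, 13.0 and 14.0 FPKM in AF and 15.6, 16.4 and 15.2 FPKM in AF+MNA. AF+MNA lay above both groups by a log2 ratio of 0.31 and 0.28 (unadjusted p = 0.0573 against AF and 0.0608 against PF). Acot8, the peroxisomal enzyme of another family, stayed between 4.36 and 7.18 FPKM, with unadjusted p of at least 0.0899.

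**Figure D4:**
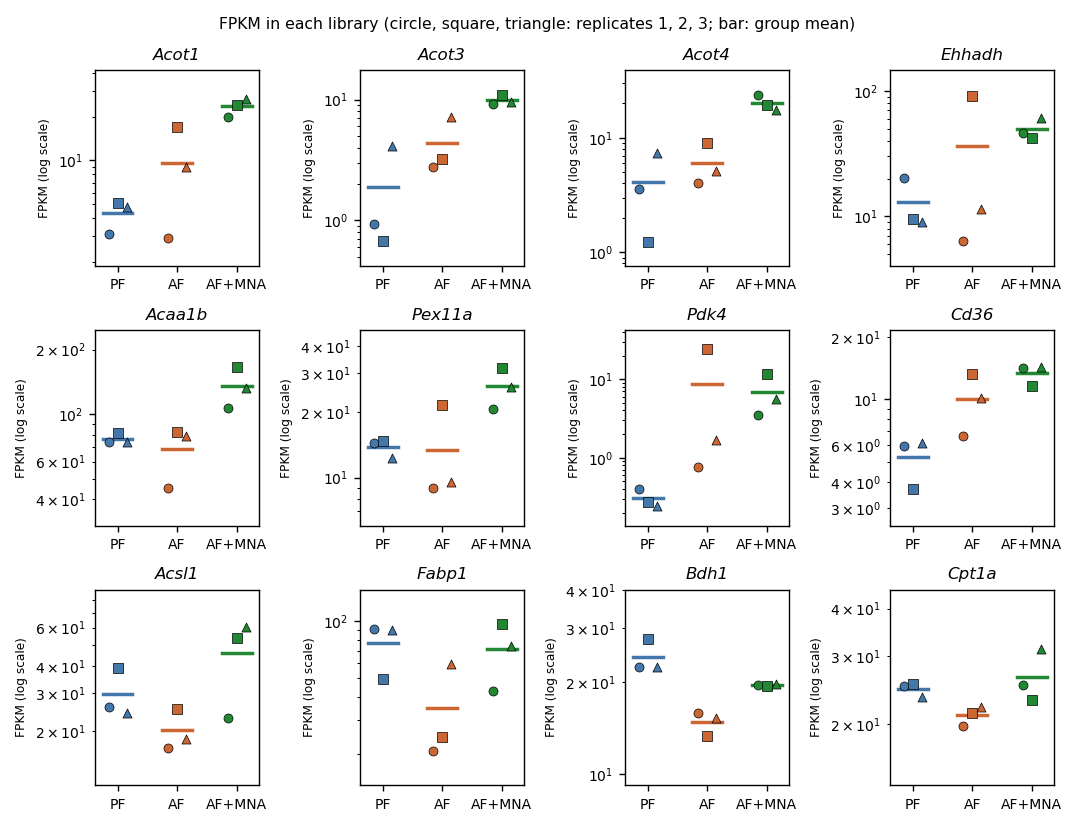
FPKM on a log axis (vertical) in PF, AF and AF+MNA (horizontal) for 12 genes; each symbol is 1 library and the bar is the mean of 3. Acot1, Acot3, Acot4 and Acaa1b are higher in AF+MNA than in all other libraries, and the square of AF replicate 2 lies far above the other AF libraries for Ehhadh and Pdk4.

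The ketone body genes were lowest in AF. Acat1, the mitochondrial thiolase that joins 2 acetyl-CoA, measured 47.3, 47.0 and 55.1 FPKM in PF, 42.2, 27.1 and 40.4 FPKM in AF and 47.5, 47.1 and 48.4 FPKM in AF+MNA. AF lay below both other groups, with replicate 2 lowest. The log2 ratio was -0.44 between AF and PF (unadjusted p = 0.0573) and 0.38 between AF+MNA and AF (unadjusted p = 0.0765). Bdh1, which turns acetoacetate into β-hydroxybutyrate, measured 22.5, 27.7 and 22.5 FPKM in PF, 15.8, 13.3 and 15.2 FPKM in AF and 19.6, 19.4 and 19.7 FPKM in AF+MNA. The 3 groups did not overlap, and AF+MNA lay between the others. Its log2 ratio was -0.71 between AF and PF (-0.67 ± 0.14 SE, unadjusted p = 0.00246, adjusted p = 0.148), 0.41 between AF+MNA and AF (unadjusted p = 0.0151) and -0.31 between AF+MNA and PF (unadjusted p = 0.0466). Of the 8 listed genes with a ratio of AF+MNA to PF below 0, Bdh1 was the 1 at an unadjusted p under 0.05, and the p was 0.0881 with the replicate block.

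Pdk4, the kinase that shuts glucose carbon out of the mitochondrion (chr6:5483351-5496309, minus strand), measured 0.40, 0.27 and 0.24 FPKM in PF, 0.76, 24.0 and 1.67 FPKM in AF and 3.53, 11.5 and 5.59 FPKM in AF+MNA. All 6 alcohol libraries exceeded PF, and AF replicate 2 exceeded all others. The PF levels of Pdk4 were low, at most 0.40 FPKM, and their read support is unknown. The log2 ratio of AF+MNA to PF was 4.50 (2.47 ± 0.36 SE on the log2(FPKM + 1) scale, unadjusted p = 0.000387, adjusted p = 0.0730). For AF to PF it was 4.86 and, without AF replicate 2, 2.00 (unadjusted p = 0.0830 and 0.0147). For AF+MNA to AF the log2 ratio of means was -0.36 while the difference on the log2(FPKM + 1) scale was 0.56 ± 1.00 SE, of opposite sign, and without AF replicate 2 the log2 ratio was 2.50 (unadjusted p = 0.0120). Vnn1, a pantetheinase of the coenzyme A salvage route, measured 16.4, 14.3 and 10.4 FPKM in PF, 9.94, 9.55 and 11.9 FPKM in AF and 15.7, 13.7 and 24.7 FPKM in AF+MNA. AF+MNA exceeded AF without overlap (log2 ratio 0.78, unadjusted p = 0.0211, adjusted p = 0.940; without AF replicate 2, 0.72 and unadjusted p = 0.0617).

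AF replicate 2 was the highest AF library for 20 of the 38 genes, against 21.8% of all genes, and AF replicate 1 the lowest for 24 of 38, against 24.9%. In AF+MNA, replicate 1 was the lowest for 23 of 38 genes, against 32.7%. Without AF replicate 2, 8 genes passed the threshold of the methods between AF+MNA and AF (Acot1, Acot4, Ehhadh, Crat, Pdk4, Pex11a, Acsl1 and Acaa1b), where 2.22% of all genes did in either direction, and 18 were higher at an unadjusted p under 0.05 (2.82%). Acot3, at a log2 ratio of 0.99, was then just short of the threshold. Then 10 genes of AF were lower than in PF at an unadjusted p under 0.05 (5.06%) and 1 was higher (5.83%). In both comparisons limma called 0 genes of the list at an adjusted p under 0.05 without that library. Of the 9 genes at an unadjusted p under 0.05 between AF and PF, 4 were then above it (Cd36, Eci1, Fabp1 and Ppargc1a), and 6 others were below it (Acsl1, Cpt2, Hadh, Hsd17b4, Pdk4 and Pex11a). Of the 17 between AF+MNA and AF, 4 were above it (Acadm, Decr1, Eci1 and Vnn1), and 5 others were below it (Acot8, Cd36, Ehhadh, Hsd17b4 and Pdk4).

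Some calls at an unadjusted p under 0.05 held without any 1 library of their comparison. Between AF and PF these were 2 of 9, Bdh1 and Decr2, both lower. Between AF+MNA and AF they were 5 of 17, Acaa1b, Acot3, Acot4, Bdh1 and Slc25a20, all higher, so the other 12 each lost the call without at least 1 library. Between AF+MNA and PF they were 10 of 13, Acaa1b, Acadm, Acot1, Acot3, Acot4, Cd36, Crat, Ehhadh, Pdk4 and Pex11a, all higher. The same count was not made over all genes, so these shares cannot be set against a background.

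**Figure D5:**
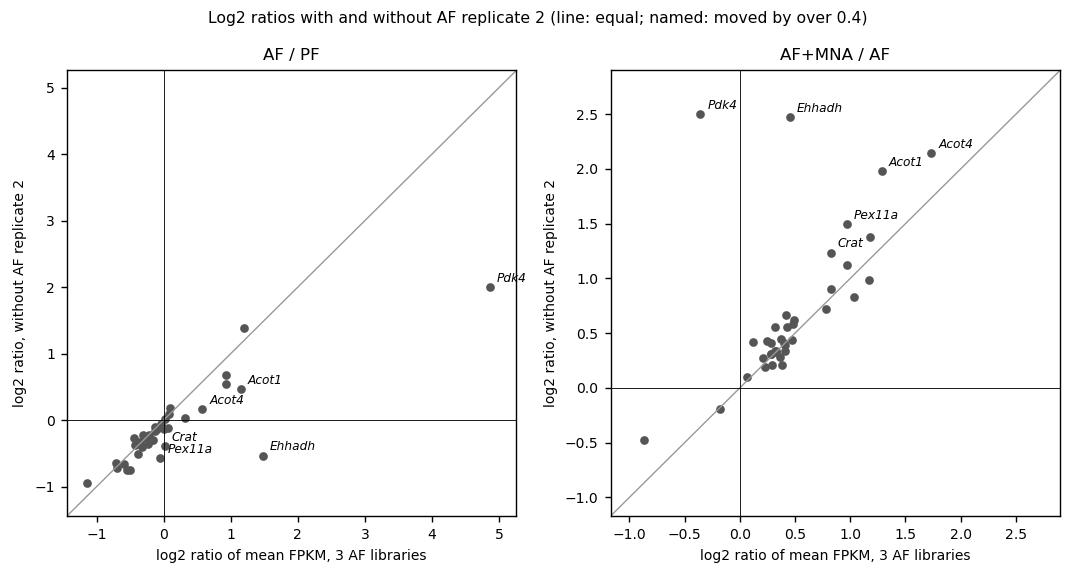
Log2 ratio of group means without AF replicate 2 (vertical) against that with the 3 AF libraries (horizontal) for the 38 genes; the line marks equality and genes that moved by over 0.4 are named. Ehhadh crosses from 1.48 to -0.54 in the left panel (AF over PF) and moves from 0.46 to 2.47 in the right (AF+MNA over AF), where Pdk4 moves from -0.36 to 2.50.

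Of 64 other genes of these pathways that were tested, 6 were higher (9.38%, all genes 5.1%) and 10 lower (15.6%, all genes 6.57%) in AF than in PF at an unadjusted p under 0.05. Between AF+MNA and AF 3 were higher (4.69%, all genes 2.91%) and 0 lower (all genes 2.3%). By this rule that share was near that of all genes. Against PF, 17 were higher (26.6%, all genes 6.52%) and 3 lower (4.69%, all genes 7.94%) in AF+MNA. Counting groups that did not overlap, 11 of the 64 were higher in AF+MNA than in AF (17.2%, all genes 5.53%). By that count 1 was lower (1.56%, all genes 4.57%). Of the 64 log2 ratios of AF+MNA to AF, 46 lay above 0 (71.9%, all genes 51.15%), with a median of 0.15 (all genes 0.01). Echs1, the hydratase of the mitochondrial spiral, stayed between 8.77 and 11.9 FPKM, with unadjusted p of at least 0.362.

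Past the threshold of the methods between AF and PF were Plin5 (log2 ratio 1.01), Fabp4 (1.21) and Cyp4a14 (1.94), all higher, and Fabp2 (-1.46), the peroxisomal carrier and thiolase gene Scp2 (-1.18) and the coenzyme A hydrolase gene Nudt7 (-1.20), all lower. Without AF replicate 2 the ratio of Plin5 was 0.75 (unadjusted p = 0.118), short of the threshold, and the other 5 still passed it. For AF+MNA against PF they were Cyp4a14 (2.53), Cyp4a10 (1.64), Cidec (1.30), Slc22a5 (1.12), Fabp4 (1.06) and G0s2 (1.06), all higher. The log2 ratio fell below 1 for Cidec and G0s2 without AF+MNA replicate 3, and for Fabp4 and G0s2 without PF replicate 1. Cyp4a14, a fatty acid ω-hydroxylase, rose from 62.6, 45.7 and 28.9 FPKM in PF to 233, 233 and 324 FPKM in AF+MNA (2.55 ± 0.30 SE, adjusted p = 0.0395). That call was lost with the replicate block (adjusted p = 0.221), without a filter on low values (0.079) and without PF replicate 2 or 3 or any 1 AF+MNA library (adjusted p from 0.0564 to 0.126), while the log2 ratio stayed between 2.28 and 2.82. None of the 64 passed this threshold between AF+MNA and AF, where limma also called 0 at an adjusted p under 0.05 and 3 at an unadjusted p under 0.05 (Hacl1, Fabp2 and Retsat).

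The 4 listed genes with no entry of their name were merged with a neighbour. Ech1, a peroxisomal and mitochondrial dienoyl-CoA isomerase, lies in the entry named Lgals4, which measured 29.6, 28.9 and 26.3 FPKM in PF, 21.8, 24.1 and 26.5 FPKM in AF and 28.5, 34.4 and 34.8 FPKM in AF+MNA. Crot, the peroxisomal carnitine octanoyltransferase, lies in the entry named Gm15611, which measured 55.9, 35.1 and 24.2 FPKM in PF, 18.9 to 26.4 FPKM in AF and 19.3 to 29.8 FPKM in AF+MNA. Etfb, the β subunit beside Etfa, lies in the entry named Vsig10l, with means of 17.3, 18.0 and 20.1 FPKM in PF, AF and AF+MNA. How much of each value belongs to the listed gene was not tested. Back-splice junction reads were few at these loci: 26 of the 4486 circular RNAs lay in 14 listed genes, with 84 reads in the 9 libraries together and at most 16 for a gene, Slc27a2.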

How the data were processed

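Total liver RNA, in 3 libraries each of PF, AF and AF+MNA, was depleted of ribosomal RNA and sequenced in strand-specific libraries. The authors made FPKM values per gene with StringTie from merged transcripts, and the deposited values have 2 decimals. The authors' lncRNA table gives FPKM, read coverage per transcript, which is a signal not scaled for depth, and coding scores (CPC and CNCI score), which were not used here. The deposited circRNA counts are back-splice junction reads, accompanied by a normalized signal. The submitters' processing notes list cutadapt 1.9, FastQC, HISAT2, StringTie 1.3.4, edgeR and TopHat. Genome build and the roles of the tools other than StringTie are not given in the sources used here. Of 7879 known lncRNA transcripts, 7708 had the coordinates of GENCODE M21 (GRCm38), from which gene coordinates were taken. FPKM values carry no gene counts, so precision was judged from the spread between libraries.

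The member list and the other lists were chosen with earlier results of these data known. Each listed gene was read from its entry with a known transcript, and 437 entries hold several coding genes. Genes averaging 0.5 FPKM or more over the 6 libraries compared (12273, 12219 and 12281 in the 3 comparisons, all 38 listed genes among them) were tested with limma 3.58.1 in R 4.3.3 (lmFit, and eBayes with an intensity trend, two-sided) on log2(FPKM + 1), adjusted by Benjamini-Hochberg. Log2 ratios are those of mean FPKM, while SE and intervals are on the log2(FPKM + 1) scale, which understates changes of low genes. The threshold of the methods joins a p under 0.05, not adjusted, to a log2 ratio past 1 or -1. With 3 against 3 libraries an exact permutation test cannot go below p = 0.1, so none was used. Any listed gene could be named. Values per library were given for genes past the threshold of the methods or an adjusted p of 0.05, for Ppara, Ppargc1a and Cpt1a and for the most abundant gene of each step. Slc25a20, Hadha, Pex11a, Decr2, Bdh1, the merged entries and the antisense lncRNAs were added after their values were seen. Of the 64 other genes, Echs1 and those past the threshold were named, and beside a count of 3 its genes; a few genes of that list are counted but not reported here by name. The test was checked on simulated data. Same-numbered libraries did not deviate together (correlations between -0.08 and 0.06), so the main test had no replicate block. Promoters came from RefSeq (GRCm38.p6), and stretches of 100 bases shared between genes from the longest coding transcripts of GENCODE M21. The alternatives were a pseudocount of 0.1, no filter or a mean of at least 2 FPKM, libraries scaled to the same median, no trend, all 9 libraries in the fit, a replicate block, the limma coefficient in the threshold and leaving out each library.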

Additional observations from a re-analysis of the deposited data

How the results depend on the processing

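No listed gene at an unadjusted p under 0.05 with all libraries reversed its direction under the alternatives run, but ratios above that p did: without AF replicate 2 Pdk4 went from -0.36 to 2.50 between AF+MNA and AF and Ehhadh from 1.48 to -0.54 between AF and PF, where Pex11a ran from -0.57 (without AF replicate 2) to 0.17 around -0.05. The share of all genes called under the same setting stands in brackets. Between AF and PF, 2 listed genes instead of 1 passed the threshold of the methods with a pseudocount of 0.1 (4.08%), with all 9 libraries in the fit (4.23%) and with the replicate block (4.58%), and 1 instead of 2 was higher at an unadjusted p under 0.05 without a filter on low values (3.82%) and with libraries scaled to the same median (5.99%). For AF+MNA against PF, the count at an adjusted p under 0.05 was 2 with a pseudocount of 0.1 (43 of all genes), 0 with all 9 libraries in the fit (48) and 0 with the replicate block (0), instead of 1 (52; 12 higher and 1 lower at an unadjusted p under 0.05 by limma), and the count lower at an unadjusted p under 0.05 was 0 with scaling to the median (7.25%), 2 with all 9 libraries (6.56%) and 0 with the replicate block (6.45%), instead of 1. The replicate block changed no other count by more than 1.5 times: between AF+MNA and AF 15 genes instead of 17 were higher with it (2.87%), and 13 with scaling to the median (3.1%). Leaving out 1 library at a time gave the widest changes. Between AF and PF the threshold of the methods was passed by 1 to 3 genes (4.21% to 6.27%; 3 without PF replicate 3 or AF replicate 1), 1 to 3 were higher at an unadjusted p under 0.05 (3.83% to 5.83%) and 3 to 10 lower (4.44% to 9.44%; 3 without PF replicate 2 or AF replicate 1, 4 without PF replicate 1, 10 without AF replicate 2). Between AF+MNA and AF the threshold was passed by 1 to 9 genes instead of 4, namely 1 without AF replicate 1 (1.87%), 2 without AF+MNA replicate 2 (1.72%) or 3 (1.76%), 8 without AF replicate 2 (2.22%) and 9 without AF+MNA replicate 1 (2.68%). There 6 to 18 instead of 17 were higher at an unadjusted p under 0.05, with 6 without AF+MNA replicate 2 (1.9%), 7 without AF+MNA replicate 3 (1.82%) and 9 without AF replicate 1 (2.51%), and 0 to 1 lower (1.44% to 3.43%). Between AF+MNA and PF 0 to 2 genes had an adjusted p under 0.05 (24 to 47 of all genes) and 0 to 1 were lower (5.73% to 7.98%). Without 1 library the median log2 ratio ran from -0.40 to 0.076 (peroxisomal) and from 0.14 to 1.23 (thioesterases) between AF and PF, from 0.28 to 0.40 (mitochondrial spiral) between AF+MNA and AF, and from 1.88 to 2.52 (thioesterases) between AF+MNA and PF. The cause was not tested. Steps with 2 genes were given no median. With no gene counts deposited, the reads behind low values such as Pdk4 in PF are unknown.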
